A study of Homo sapiens with 4 samples.

Results

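Long intergenic noncoding RNA genes that have 1 transcript, and so 1 row, in a table of transcript counts were examined in cells labelled HepG2. The rule took transcripts with an Ensembl identifier whose gene is classed as lincRNA in GENCODE release 29, on chromosomes 1 to 22, and whose gene has exactly 1 row. It gave 5479 transcripts of as many genes out of 106179 transcripts in the table. Of these genes, 5473 have 1 transcript in the release as well, and 6 have others that were not analysed here. For comparison, 1953 lincRNA genes on the same chromosomes have several rows, 7330 transcripts in all. The rule used no counts.

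The study compared 2 libraries of wild-type cells with 2 libraries of cells resistant to oxaliplatin, a platinum drug that binds DNA, and asked which lincRNAs differ between them. Both groups carry the label HepG2, an established human liver cancer line, and the labels state no treatment before harvest for either. The resistant cells had been selected as resistant. Dose, duration of selection and clonality are not stated in the labels. Total RNA was sequenced as paired-end reads, and separate cultures are not stated for the libraries of a group. The p-values therefore reflect the variation among these 4 libraries, which may be technical.

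A lincRNA is transcribed by RNA polymerase II from its own start site between protein-coding genes, is usually capped and often spliced and polyadenylated, and carries no long reading frame. Most lincRNA genes are weakly transcribed and restricted to few tissues, and a minority have a known role, such as the scaffold NORAD, which binds Pumilio proteins. Many are known only by the name of the genomic clone they lie on: 4343 of the 5479 genes (79.3%) carry such a name and 927 carry a LINC symbol. A gene with 1 transcript offers no alternative isoform of its own to which a counting program could assign a read. Reads can still be shared with other genes: 787 of these transcripts overlap an exon of another gene, 208 of them on the same strand, and 2372 (43.3%) hold at least 1 stretch of 31 bases that also occurs in a transcript of another gene. A further 19275 Ensembl identifiers and 2832 assembled transcripts in the table have no name in release 29, and whether some of them are isoforms of these genes was not tested.

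The sequences below come from spliced genes, those of smallest p-value in each direction among the genes named by the rule given at the end. Reads across these junctions were not analysed here. Each line gives 80 bases of the transcript across the junction of exons 1 and 2, with exon 1 in lower case and exon 2 in capitals, 5′ to 3′, from GENCODE release 29 on GRCh38. The AL392086.3 junction joins chr10:6737589-6737628 to chr10:6833643-6833682 on the plus strand, and the AL031599.1 junction joins chr1:172776088-172776127 to chr1:173004282-173004321 on the plus strand. The AC024909.1 junction joins chr12:89309410-89309449 to chr12:89123036-89123075 on the minus strand. The AC021231.1 junction joins chr15:35169625-35169664 to chr15:35100250-35100289, and the AL592295.3 junction joins chr1:161470470-161470509 to chr1:161427980-161428019, both on the minus strand. The PICSAR junction joins chr21:45004444-45004483 to chr21:44999617-44999656 on the minus strand, and the GAS1RR junction joins chr9:86948954-86948993 to chr9:86950867-86950906 on the plus strand.
AL392086.3: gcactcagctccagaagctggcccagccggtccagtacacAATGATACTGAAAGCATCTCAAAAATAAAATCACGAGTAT
AL031599.1: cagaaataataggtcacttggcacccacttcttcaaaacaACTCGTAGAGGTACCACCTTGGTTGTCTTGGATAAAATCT
AC024909.1: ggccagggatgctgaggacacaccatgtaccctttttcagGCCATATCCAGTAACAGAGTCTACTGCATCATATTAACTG
AC021231.1: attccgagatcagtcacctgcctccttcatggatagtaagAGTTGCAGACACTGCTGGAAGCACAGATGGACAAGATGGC
AL592295.3: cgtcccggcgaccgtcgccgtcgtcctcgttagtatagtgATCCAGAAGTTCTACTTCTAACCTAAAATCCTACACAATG
PICSAR: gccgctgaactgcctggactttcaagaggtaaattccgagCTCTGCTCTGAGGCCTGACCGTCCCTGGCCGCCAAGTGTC
GAS1RR: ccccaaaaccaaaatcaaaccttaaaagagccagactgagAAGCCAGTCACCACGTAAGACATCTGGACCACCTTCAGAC

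The wild-type libraries totalled 38113398 and 34898860 counts and the resistant ones 43473826 and 44063444. Since 3 counts is the limit that a count of 0 allows, the floor is 0.0833 and 0.0908 CPM in the wild-type pair and 0.0660 and 0.0684 CPM in the resistant pair. CPM, a count scaled by the size of its library, is here relative to the counts of all tested transcripts after TMM scaling (trimmed mean of M-values), and such limits cover counting error only. The labelled cell type could be checked in part, since the table holds noncoding transcripts and few mRNAs. Of 23 hepatocyte and HepG2 marker names 15 had a row, and 11 were at 0 in all 4 libraries, among them AFP, TTR, SERPINA1 and the liver lincRNA LINC01018. H19, an imprinted lincRNA, was the marker with at least 10 counts in every library (6486, 8186, 5958 and 5116), and ALB had 8, 0, 0 and 0. The summed hepatocyte markers other than H19 came to 11 and 11 counts in the wild-type pair and 10 and 78 in the resistant pair. Summed fibroblast markers came to 178 and 251 counts in the wild-type pair and 135 and 67 in the resistant pair. Of the 7 names, COL1A1 and PDGFRB had at least 10 counts in every library, and COL1A2 and LUM were at 0 in all 4. Endothelial markers reached 3 counts and immune markers 27 at most in any library. The part of these markers in the results was not tested.

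Single-transcript lincRNA genes took a small and similar part of each library. They held 0.531% and 0.569% of all counts in the wild-type libraries and 0.559% and 0.559% in the resistant ones. The means were 0.550% ± 0.0271 and 0.559% ± 0.000313 (SD, n = 2), so the groups overlapped. lincRNA genes with several rows held 2.53% ± 0.324 and 2.63% ± 0.0391. Of the 5479 genes, 3693 (67.4%) had a count of 0 in all 4 libraries. At least 10 counts in both libraries of a group were found for 560 genes in the wild-type pair and 669 in the resistant pair, of which 486 were shared, 74 were found in wild type alone and 183 in the resistant pair alone. The resistant libraries are deeper, and the part of depth in that difference was not tested.

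Detection differed by position in the genome. A gene was called divergent when its start lay within 1000 bases of the start of a protein-coding gene on the other strand, and downstream when it began within 5000 bases past the end of a coding gene on the same strand. It was called distant when no coding gene lay within 50000 bases, and other otherwise. An expression filter at a minimum count of 10 kept 855 of the 5479 genes for testing. It kept 140 of 329 divergent genes (42.6%), 100 of 253 downstream genes (39.5%), 474 of 2452 other genes (19.3%) and 141 of 2445 distant genes (5.77%). Genes close to a coding gene thus passed the filter more often than distant ones.

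**Figure D1:**
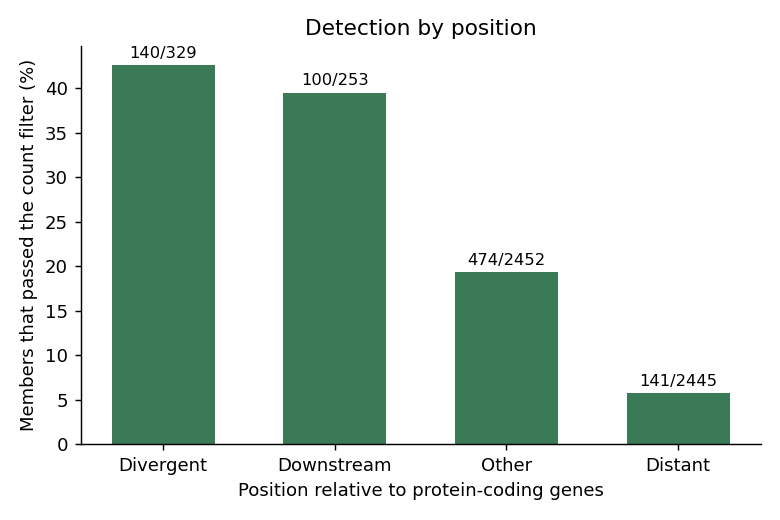
Share of single-transcript lincRNA genes that passed the expression filter (y axis, percent) by position relative to protein-coding genes (x axis), with the numbers passed and total above each bar. Divergent genes stand at 42.6% and distant ones at 5.77%.

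Genes that passed the filter had a median spliced length of 880 bases against 578 for those that did not, and 43.5% against 17.2% had a single exon. The polyadenylation signal AATAAA stood on the transcript strand in the last 50 bases of 44.8% of the tested transcripts and 36.4% of the others, against 33.5% of the 13180 lincRNA transcripts of the release. Promoters from RefSeq (GRCh38.p14), 300 bases around the start site, could be matched for 911 genes, and in 676 the RefSeq start lay within 50 bases of the GENCODE start. The GC box core GGGCGG, searched on both strands, occurred in 53 of 108 tested genes (49.1%), in 80 of 568 untested ones (14.1%) and in 44.6% of the 27305 promoters of the table. The TATA box core TATAAA, also on both strands, occurred in 8.33% of tested and 17.3% of untested genes and in 3264 of the 27305 promoters. The CCAAT box, searched as CCAAT on both strands, occurred in 30.6%, 33.8% and 35.7% in the same order, shares that lie closer together. The median GC content of these windows was 57.5% in tested genes, 47.3% in untested ones and 58.3% in all promoters, and a match describes letters and not a bound site.

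Against the spread between libraries, none of the 855 tested genes passed adjustment. The quasi-likelihood test of edgeR, adjusted by Benjamini-Hochberg and fitted on all 42393 transcripts that passed the filter, called 0 of 855 genes and 0.0% of all transcripts at 0.05, and the smallest adjusted p was 0.329. limma-voom also called 0 genes. At an unadjusted p under 0.05 the edgeR test gave 60 of the 855 genes (7.02%), next to 7.74% of all tested transcripts. Of the 60, 38 (4.44%) had a higher mean in resistant cells, against 4.56% of all transcripts, and 22 (2.57%) a lower one, against 3.18%. These shares are near the background. The CPM values of the 2 groups did not overlap in 404 genes (47.3%), next to 40.3% of all transcripts. Of these, 240 were higher in resistant cells (28.1% of the 855, background 21.4%) and 164 lower (19.2%, background 18.9%). The median log2 difference was 0.09 over the 855 genes and 0.02 over all transcripts. DESeq2 called 31 of the 855 genes, 18 higher and 13 lower (3.63%, against 5.33% of all transcripts). The common dispersion of the edgeR fit was 0.941, a coefficient of variation of 0.970 between libraries.

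**Figure D2:**
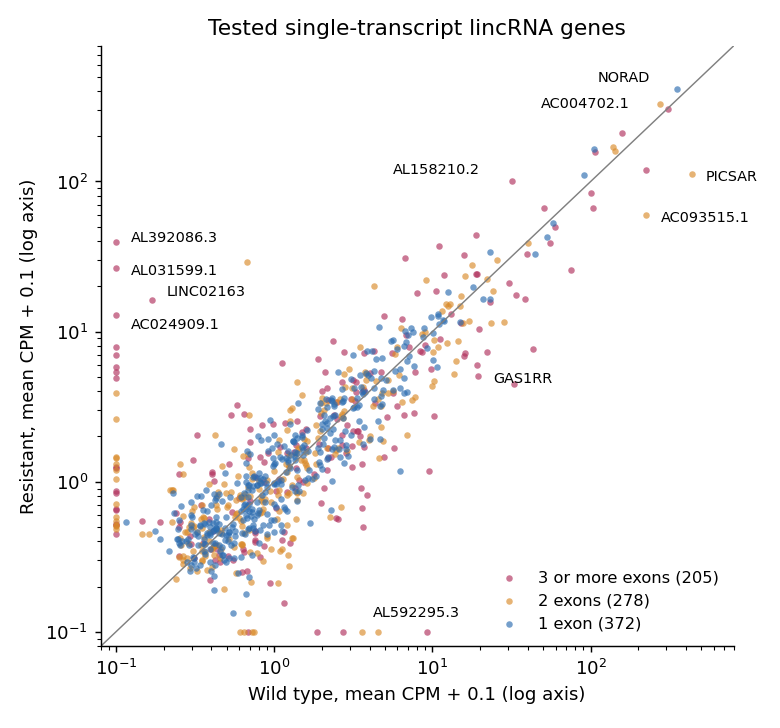
Mean level in wild type (x axis) and resistant cells (y axis) of the 855 tested genes, in CPM + 0.1 on log axes, coloured by number of exons. Points on the left edge had 0 counts in both wild-type libraries; single-exon genes keep close to the diagonal, while AL392086.3, AL031599.1, PICSAR and other labelled spliced genes lie away from it.

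Shares of genes with small p-values differed by number of exons. The filter kept 372 of 1168 single-exon genes, 278 of 2274 genes with 2 exons and 205 of 2037 genes with 3 or more. An unadjusted p under 0.05 was found for 4 of the 372 single-exon genes (1.08%), 25 of the 278 with 2 exons (8.99%) and 31 of the 205 with 3 or more (15.1%), against the 7.74% of all transcripts. In contrast, groups that did not overlap were seen in 197 of the 372 single-exon genes. The share was 41.4% for genes with 2 exons and 44.9% for those with 3 or more, next to 40.3% of all tested transcripts. Single-exon genes thus had separate groups in a larger share of cases and an unadjusted p under 0.05 in a smaller one.

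Agreement within a group followed the same order. Among genes with at least 100 counts in a library of the wild-type pair, the other library was at 0 for 1 of 99 single-exon genes (1.01%), 14 of 81 genes with 2 exons (17.3%) and 43 of 119 genes with 3 or more (36.1%). In the resistant pair the numbers were 1 of 113 (0.885%), 16 of 104 (15.4%) and 37 of 131 (28.2%). The median gap between the libraries of a pair, in log2(CPM + 0.1), was 0.42 and 0.34 in the wild-type pair and resistant cells for tested single-exon genes, and 1.20 and 0.82 for those with 3 or more exons. Over all exon numbers, 58 of 299 genes (19.4%) disagreed in this way in the wild-type pair and 54 of 348 (15.5%) in the resistant pair. Transcripts of lincRNA genes with several rows did so in 31.6% and 31.1%, and the sums over those genes in 17.0% and 16.1%.

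**Figure D3:**
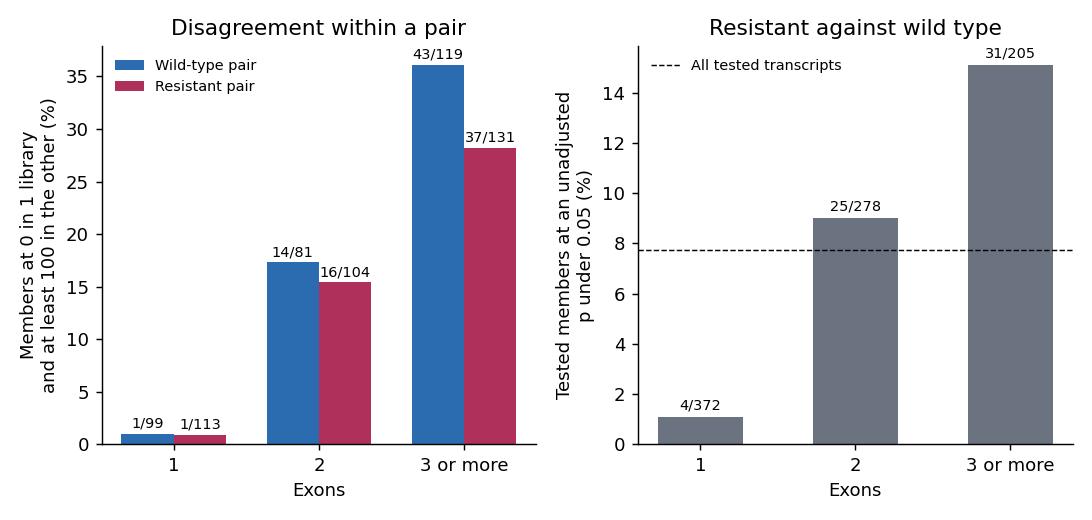
Left, share of genes at 0 in 1 library and at least 100 in the other library of the same group (y axis, percent) by number of exons (x axis), for the wild-type and the resistant pair. Right, share of tested genes at an unadjusted p under 0.05 by number of exons, with the 7.74% of all tested transcripts as a dashed line. Single-exon genes stand lowest in both panels, at 1.01% and 0.885% on the left and 1.08% on the right.

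Single-exon and spliced genes also differed in this way among genes that share no 31-base stretch with a transcript of another gene. There, 0 of 32 single-exon genes and 27 of 72 genes with 2 or more exons (37.5%) disagreed within the wild-type pair, and 1 of 30 and 27 of 81 (33.3%) within the resistant pair. Median counts per library were 36.8, 33.9 and 79.2 for tested genes with 1, 2 and 3 or more exons. These medians cover tested genes, not the genes with at least 100 counts in a library that the shares above describe. Among tested genes with a mean of at least 45 counts, 0 of 172 single-exon genes had an unadjusted p under 0.05 in the edgeR test, against 24 of 256 (9.38%) with 2 or more exons. The cause of the difference was not tested, and rows without a name in release 29 could hold isoforms of spliced genes.

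The 3 single-exon genes of highest CPM in wild type include NORAD, AC005261.1 and HCG11, and NORAD has the highest mean CPM of all 855 tested genes over the 4 libraries together, while PICSAR, with 2 exons, is higher in wild type. NORAD had 12661 and 11758 counts in the wild-type pair and 17013 and 19839 in the resistant pair. AC005261.1, on chromosome 19, had 4211 and 3103 counts in the wild-type pair and 7023 and 7656 in the resistant pair. Its groups did not overlap, and the log2 difference was 0.64 ± 0.31 (SE; edgeR adjusted p = 0.835). LINC00294 on chromosome 11 had 1595 and 1476 counts in the wild-type pair and 1522 and 1428 in the resistant pair, which in CPM is lower in the deeper resistant libraries, 44.5 ± 0.288 against 33.0 ± 0.654 CPM (SD, n = 2). AC093297.2 on chromosome 5 had 869 and 719 counts in the wild-type pair and 1544 and 1478 in the resistant pair. Apart from NORAD, these genes were chosen after their values were seen, and the CPM values of the groups did not overlap in any of them.

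The 4 single-exon genes at an unadjusted p under 0.05 were weakly expressed. AL592211.1 had 23 and 16 counts in the wild-type pair and 3 and 4 in the resistant pair. AC100814.1 had 5 and 4 counts in the wild-type pair and 43 and 24 in the resistant pair, and AC245060.5 had 16 and 9 and then 66 and 83. AP003392.5 had 0 and 1 counts in the wild-type pair and 23 and 16 in the resistant pair. The groups did not overlap in any of the 4, all of which were named after their values were seen.

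Genes counted in 1 group only were spliced. With at least 100 counts in both libraries of a group and 0 in both of the other, 10 genes were found in resistant cells and 2 in wild type; 3 of the 12 had 2 exons and 9 had 3 or more. These are 1.17% and 0.234% of the 855 tested genes, next to 0.922% and 0.469% of all tested transcripts. The resistant ones were AL392086.3, AL031599.1, AC024909.1, LINC01429, AL357054.2, AC084032.1, AP001266.2, AC008269.1, AC025575.2 and AC011306.1. The wild-type ones were AL592295.3 and AC021231.1. None of the 12 passed adjustment in edgeR, and all 12 did in DESeq2. Picked by these same counts, the 12 gain no separate support from either test. Folds against a group at 0 are lower bounds that set each library at 0 to 3 counts and cover counting error only. Zeros also occurred within pairs. Of genes with 3 or more exons and at least 100 counts in a library, 36.1% in the wild-type pair were at 0 in the other library. In the resistant pair the share was 28.2%.

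AL392086.3 had the highest level of these. It lies at chr10:6737418-6840712 on the plus strand, with 4 exons and a spliced length of 614 bases. It had 0 and 0 counts in the wild-type pair and 1826 and 1712 in the resistant pair. The 2 groups were separate, and the resistant mean, 39.6 ± 0.804 CPM (SD, n = 2), was at least 455-fold higher. The edgeR adjusted p was 0.329 and that of DESeq2 5e-12. The transcript (ENST00000648995) shares 94.86% of its 31-base stretches with LINC00707, LINP1 and AL392086.2, which overlap it, and 30 of its 584 such stretches occur in no other gene's transcript. All 30 span the junction of exons 1 and 2, the one printed above.

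The neighbouring transcripts were therefore read beside it. LINC00707, a cancer-associated lincRNA with several rows, had 16347 and 11703 counts in the wild-type pair and 32297 and 26365 in the resistant pair summed over its transcripts. LINP1, a lincRNA known for a role in joining DNA ends, had 133 and 183 counts in the wild-type pair and 149 and 118 in the resistant pair. AL392086.2, also a single-transcript gene and not among those tested, had 2766 counts in wild-type replicate 2 and 0 in the other 3 libraries, and shares 97.84% of its 31-base stretches. The 5 overlapping genes together had 464.9 and 447.5 CPM of the whole library total in the wild-type pair and 880.6 and 752.3 in the resistant pair. The locus as a whole was thus higher in both resistant libraries, by far less than the single transcript AL392086.3. In the edgeR test on gene sums, the log2 difference of LINC00707 was 0.69 ± 0.26 (SE; Benjamini-Hochberg adjusted p = 0.641). How reads were divided among these transcripts was not tested.

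AL158210.2, another single-transcript gene of the locus, was present in all libraries. It lies at chr10:6682513-6823789 on the plus strand, with 7 exons, and shares 19.31% of its 31-base stretches with the same 3 genes. It had 1239 and 966 counts in the wild-type pair and 4009 and 4956 in the resistant pair. No overlap of the groups was seen, with means of 31.8 ± 3.64 and 101 ± 17.5 CPM (SD, n = 2). The mean was 3.16-fold higher in resistant cells, a log2 difference of 1.66 ± 0.35 (SE; edgeR adjusted p = 0.371).

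AL031599.1 and AC024909.1 share no 31-base stretch with another gene's transcript. AL031599.1 lies at chr1:172775905-173064015 on the plus strand, with 5 exons, and spans TNFSF18, a TNF-family ligand gene on the other strand. It had 0 and 0 counts in the wild-type pair and 1259 and 1120 in the resistant pair, at least 306-fold higher at 26.6 ± 1.53 CPM (SD, n = 2). AC024909.1 lies at chr12:89048187-89309553 on the minus strand, with 4 exons, 37679 bases from DUSP6, which encodes a phosphatase of the MAP kinase ERK. It had 0 and 0 counts in the wild-type pair and 573 and 573 in the resistant pair, at least 147-fold higher at 12.8 ± 0.324 CPM (SD, n = 2). The edgeR adjusted p was 0.329 for each, and the noncoding transcripts of DUSP6 in the table had 15 and 12 counts in the wild-type pair and 23 and 17 in the resistant pair.

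The other resistant-only genes had lower counts. LINC01429, 29277 bases from SALL4, had 300 and 399 counts in the resistant libraries, at least 90.1-fold higher than wild type. AC084032.1 had 253 and 361, but shares 47.81% of its 31-base stretches with transcripts of 46 genes. AL357054.2 had 219 and 212 counts, AP001266.2 had 184 and 157, and AC008269.1 had 107 and 116. In these 3 the resistant libraries lay close together. AC025575.2 had 171 and 337 counts and AC011306.1 had 108 and 360, so their resistant libraries differed more. The bounds for the last 6 genes ranged from 28.7-fold to 79.2-fold, with edgeR adjusted p from 0.329 to 0.366. AC025575.2 shares 24.49% of its 31-base stretches with transcripts of 124 genes, and AC011306.1 shares 36.22% with 473 genes. AC007744.1, which overlaps AC011306.1 on the same strand, had 423 and 0 counts in the wild-type pair and 0 and 0 in the resistant pair. How reads were divided among these transcripts was not tested.

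LINC02163, from a list of cancer-associated lincRNAs, was close to this pattern. It had 5 and 0 counts in the wild-type pair and 725 and 714 in the resistant pair. The groups did not overlap, with means of 0.0694 ± 0.0981 and 16.1 ± 0.233 CPM (SD, n = 2), and the edgeR adjusted p was 0.41. A fold of 232 between these means rests on 5 counts. AL158210.2 and LINC02163 passed in DESeq2, with adjusted p of 0.00766 and 1.13e-05. LINC02163 has 5 exons and lies on chromosome 5, 517118 bases from the nearest coding gene, NUDT12.

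Among genes with a lower mean in resistant cells and no overlap between the groups, PICSAR had the highest level in wild type. PICSAR is named for its inhibition by p38 kinase and its association with cutaneous squamous cell carcinoma, a skin cancer. The transcript (ENST00000615826) lies at chr21:44999208-45004727 on the minus strand, with 2 exons and 733 spliced bases, and shares no 31-base stretch with another gene's transcript. It had 13768 and 16036 counts in the wild-type pair and 4867 and 5163 in the resistant pair. The 2 groups were separate, with means of 434 ± 73.0 and 112 ± 7.52 CPM (SD, n = 2). The mean was 3.86-fold lower in resistant cells, a log2 difference of -1.95 ± 0.30 (SE; edgeR adjusted p = 0.329). Per kilobase of spliced length its level was 591.7 CPM in wild-type cells and 153.2 CPM in resistant cells.

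GAS1RR, named as a regulatory RNA next to GAS1, a growth-arrest gene whose product binds Hedgehog ligands, gave a difference of similar size. The transcript (ENST00000415801) lies at chr9:86948699-87002033 on the plus strand, with 7 exons, 1510 bases from GAS1, which was not analysed here. It had 705 and 637 counts in the wild-type pair and 231 and 211 in the resistant pair. No overlap of the groups was seen, with means of 19.4 ± 0.202 and 4.94 ± 0.192 CPM (SD, n = 2), 3.93-fold lower in resistant cells. The log2 difference was -1.97 ± 0.37 (SE; edgeR adjusted p = 0.352). PICSAR and GAS1RR passed in DESeq2, with adjusted p of 0.000197 and 4.56e-06. GAS1RR shares 3.33% of its 31-base stretches with other genes.

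AC093515.1 on chromosome 16 had 9117 and 6450 counts in the wild-type pair and 3595 and 1760 in the resistant pair. The groups did not overlap, but the resistant libraries differed, with means of 224 ± 40.9 and 59.6 ± 27.5 CPM (SD, n = 2) and a log2 difference of -1.91 ± 0.50 (SE; edgeR adjusted p = 0.468). LINC01271 on chromosome 20 had 574 and 516 counts in the wild-type pair and 337 and 269 in the resistant pair, 2.33-fold lower in CPM. It shares 57.61% of its 31-base stretches with the overlapping LINC01270. AL138885.3, AC005304.3 and AC027045.2 had means 5.02-fold, 6.20-fold and 3.80-fold lower, and AC012313.8, a divergent single-exon gene next to ZNF132, 2.46-fold lower. AC005304.3 had 114 and 127 counts in the wild-type pair and 39 and 12 in the resistant pair, and its log2 difference of -2.62 ranged from -3.66 without resistant replicate 1 to -2.03 without resistant replicate 2. LINC02410 had 242 and 69 counts in the wild-type pair and 0 in both resistant libraries. The groups of these genes did not overlap, and their edgeR adjusted p ranged from 0.359 to 0.664.

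A pair of genes of this direction have SDHC, which encodes a subunit of succinate dehydrogenase, as their nearest coding gene. It lies 28069 bases from AL592295.3 and 58104 bases from AL831711.1, which is classed as distant. AL592295.3, at chr1:161403409-161470523 on the minus strand with 5 exons, had 221 and 400 counts in the wild-type pair and 0 and 0 in the resistant pair, at least 136-fold lower. AL831711.1, which lies within its span on the same strand, had 377 and 306 counts in the wild-type pair and 169 and 211 in the resistant pair, 2.31-fold lower. The noncoding transcripts of SDHC, on the other strand, had 0 and 0 counts in the wild-type pair and 319 and 289 in the resistant pair. The 3 sets of values all separate the groups, and the edgeR adjusted p was 0.329 for AL592295.3 and 0.655 for AL831711.1. AC021231.1, on chromosome 15 with 2 exons and no shared stretch, had 106 and 132 counts in the wild-type pair and 0 and 0 in the resistant pair, at least 51.6-fold lower (edgeR adjusted p = 0.329).

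**Figure D4:**
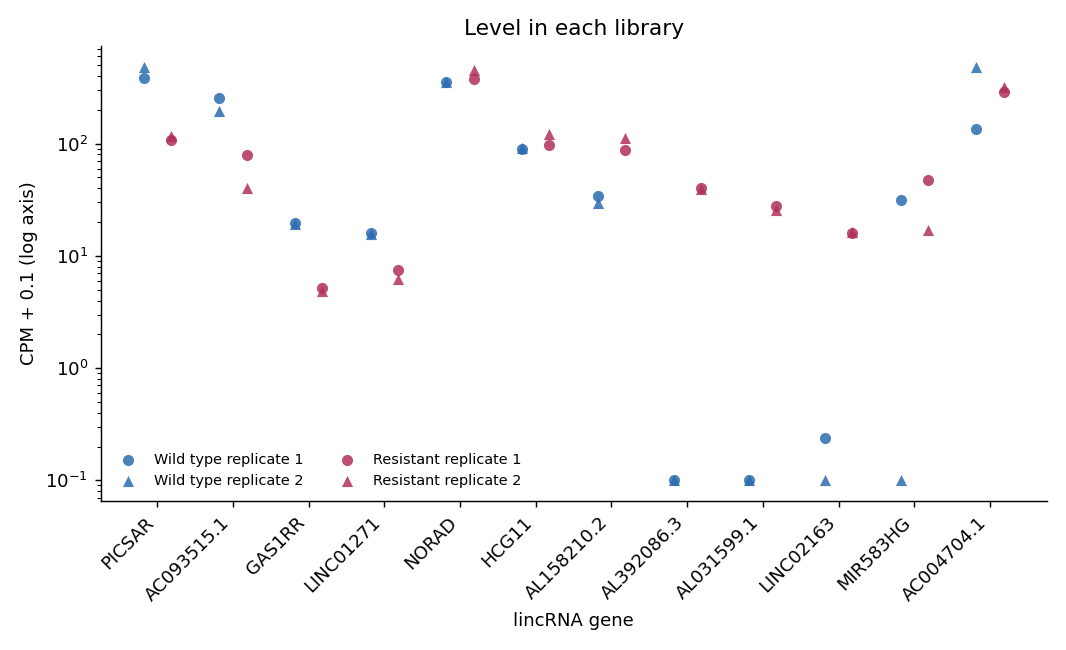
Level of 12 single-transcript lincRNA genes in each library (y axis, CPM + 0.1, log axis); colour gives the group and symbol the replicate. PICSAR, AC093515.1, GAS1RR and LINC01271 lie lower in both resistant libraries, AL158210.2, AL392086.3, AL031599.1 and LINC02163 higher, while the wild-type libraries of MIR583HG and AC004704.1 lie far apart.

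Some abundant tested genes were at 0 in 1 library of a group and high in the other. MIR583HG, the host gene of miR-583, had 1141 and 0 counts in the wild-type pair and 2173 and 742 in the resistant pair. LINC01885 had 1092 and 0 counts in the wild-type pair and 967 and 61 in the resistant pair. FAM230C, a member of a multicopy family that shares 53.97% of its 31-base stretches with 22 genes, had 1089 and 1532 counts in the wild-type pair and 0 and 1434 in the resistant pair. AL035446.2 had 0 and 720 counts in the wild-type pair and 2143 and 1170 in the resistant pair. The first 3 had overlapping groups, and all 4 have at least 3 exons. LINC01885 and AL035446.2 share no 31-base stretch with another gene. The log2 differences of all 4 depend on which library is left out. That of LINC01885 was -0.42 with all libraries and 11.85 without wild-type replicate 1, which keeps the wild-type library at 0. Without wild-type replicate 2, the library at 0, it was -1.42.

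Per kilobase of spliced length, the highest level belonged to AC004702.1, with 1401 CPM in wild-type cells and 1681 CPM in resistant cells. Its spliced length is 195 bases, and by mean CPM without regard to length it ranked 3. No correction for fragment length was made. It had 8378 and 10377 counts in the wild-type pair and 12674 and 16538 in the resistant pair. The groups overlapped in CPM, and the log2 difference was 0.26 ± 0.35 (SE; edgeR adjusted p = 0.982). AC004702.1 shares 40.61% of its 31-base stretches with transcripts of 989 genes, and how reads were divided among them was not tested.

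The next levels per kilobase were those of AC004704.1, PICSAR, AL162582.1 and AC093515.1. AC004704.1 had 4865 and 15868 counts in the wild-type pair and 13231 and 13934 in the resistant pair, with wild-type replicate 1 apart from the other 3 libraries. AL162582.1, which lies within the transporter gene SLC22A2 on the other strand, had 4505 and 4969 counts in the wild-type pair and 8397 and 6755 in the resistant pair, with separate groups and a log2 difference of 0.30 ± 0.31 (SE; edgeR adjusted p = 0.968). AL136115.2, AC024901.1, AC008035.1, AL162411.1 and AC010519.1 complete the first 10, with 240.9, 310.7, 222.7, 96.8 and 114.4 CPM per kilobase in wild-type cells and 271.4, 166.3, 187.0, 127.0 and 94.8 in resistant cells. None of the first 10 has a single exon.

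NORAD, the noncoding RNA activated by DNA damage, was abundant in all 4 libraries. It is a long cytoplasmic RNA that binds Pumilio-family proteins at many sites and is needed for stable chromosome numbers. Its means were 354 ± 3.18 CPM in wild-type cells and 413 ± 55.2 CPM in resistant ones (SD, n = 2), with a log2 difference of 0.22 ± 0.27 (SE; edgeR adjusted p = 0.975). Both resistant libraries lay above both wild-type ones, and the difference of the means was close to the SD of the resistant pair. HCG11, a single-exon gene on chromosome 6 added after its values were seen, had 3224 and 3013 counts in the wild-type pair and 4419 and 5394 in the resistant pair. Its log2 difference was 0.28 ± 0.31 (SE; edgeR adjusted p = 0.969).

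Both transcripts are rich in the word TGTANATA, the core that Pumilio proteins recognise, searched on the transcript strand with N for any base. NORAD (chr20:36045622-36050960, minus strand) holds 15 in 5339 bases and HCG11 (chr6:26521709-26527404, plus strand) 16 in 5696 bases, 2.81 per kilobase in each. The third by number, AL645937.4 on chromosome 6, holds 10 and had 0 counts in all libraries, and no other gene of the class holds more than 8. Per kilobase, the short AL121895.2 stands higher than NORAD and HCG11, with 5 words in 447 bases (11.2 per kilobase). At least 1 word occurs in 473 of the 5479 transcripts (8.63%), next to 7.28% of lincRNA transcripts. NORAD and HCG11 are identical at 4943 of 5793 aligned positions (85.3%), with a longest identical run of 117 bases. NORAD shares 56.41% of its 31-base stretches with transcripts of 2467 genes, the largest part with OVCH1-AS1 (38.03%), and HCG11 shares 24.07% of its own with 3955 genes, of which 11.58% with NORAD. How reads were divided among these was not tested.

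Stretches of both are printed to show the shared words, in capitals, on GRCh38 from GENCODE release 29. The identical run lies at chr20:36050094-36050210 in NORAD and at chr6:26522458-26522574 in HCG11. The second pair, with 2 words next to each other, lies at chr20:36049470-36049549 in NORAD and at chr6:26523113-26523192 in HCG11.
NORAD run: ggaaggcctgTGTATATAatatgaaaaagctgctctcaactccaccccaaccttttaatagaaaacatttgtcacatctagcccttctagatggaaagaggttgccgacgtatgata
HCG11 run: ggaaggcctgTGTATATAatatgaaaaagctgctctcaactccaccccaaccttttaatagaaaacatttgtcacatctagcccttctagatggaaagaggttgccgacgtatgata
NORAD pair: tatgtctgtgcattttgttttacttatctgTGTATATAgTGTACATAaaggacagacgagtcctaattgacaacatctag
HCG11 pair: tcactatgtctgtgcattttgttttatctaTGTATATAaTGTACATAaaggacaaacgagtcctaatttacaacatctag

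The NORAD promoter from RefSeq (GRCh38.p14), chr20:36050911-36051210 on the minus strand, is printed as that of the gene of highest mean CPM over the 4 libraries. The TATA box, CCAAT box and GC box motifs given above had no match in it on either strand. The core of the antioxidant response element, TGACNNNGC, searched on both strands, had 1 match, on the other strand, in capitals. It occurs in 18.5% of the tested genes with a matched start, 12.9% of the untested ones and 13.6% of all promoters.
NORAD promoter: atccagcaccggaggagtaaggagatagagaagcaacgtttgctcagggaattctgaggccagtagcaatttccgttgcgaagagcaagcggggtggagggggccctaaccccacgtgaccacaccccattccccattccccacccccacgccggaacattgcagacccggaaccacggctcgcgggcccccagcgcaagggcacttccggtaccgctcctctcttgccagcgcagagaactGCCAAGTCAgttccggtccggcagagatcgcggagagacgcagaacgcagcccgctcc

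**Figure D5:**
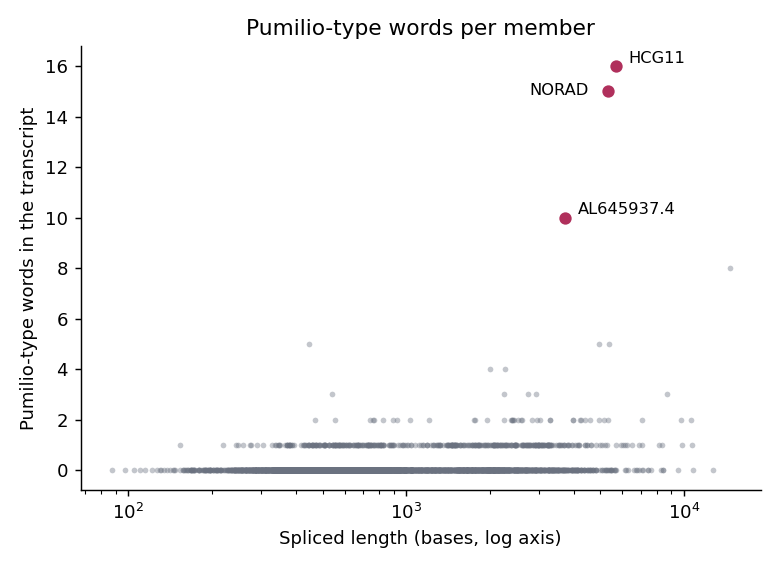
Number of TGTANATA words (y axis) against spliced length in bases (x axis, log) for all 5479 transcripts. HCG11 with 16, NORAD with 15 and AL645937.4 with 10 lie above all others.

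Differences of the lincRNA genes were set beside those of their coding neighbours where the neighbour's noncoding transcripts were counted. The sign was the same in 46 of 96 divergent pairs, 42 of 64 downstream pairs, 142 of 282 other pairs and 27 of 59 distant pairs. Across genes, Pearson's r of the log2 differences lay between -0.05 and 0.02 in the 4 classes, and Spearman's rho was 0.25 for downstream pairs and between -0.06 and 0.07 in the other classes, with no test. SNHG19, a snoRNA host gene that starts 340 bases from the start of TRAF7, had 389 and 484 counts in the wild-type pair and 597 and 746 in the resistant pair, and the TRAF7 transcripts had 29 and 61 and then 59 and 140. In CPM, the groups of SNHG19 overlapped. The values describe pairs that share libraries, and mRNAs of the neighbours were not analysed here.

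Few of the listed lincRNAs are single-transcript genes. Of 29 liver-associated names, 8 are single-transcript genes and 7 of these had 0 counts in all libraries. LINC01348 was the exception, with 80 and 98 counts in the wild-type pair and 67 and 81 in the resistant pair; in CPM the groups did not overlap, at 2.59 ± 0.527 and 1.66 ± 0.263 CPM (SD, n = 2), with an edgeR adjusted p of 0.926. Of 32 names tied to cancer and invasion, 5 belong to the class and 2 were tested. One is LINC02163, described above, and the other is CCAT2, an RNA from a colon cancer risk region, with 18 and 24 counts in the wild-type pair and 24 and 20 in the resistant pair. Of 20 names tied to p53 and DNA damage, NORAD and PANDAR belong to the class, and PANDAR had 0 counts in all libraries. Of 22 structural and regulatory names, NORAD is the 1 member.

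Of 13 host genes of small RNAs, 7 had 0 counts in all libraries, among them MIR122HG, the host of the liver microRNA miR-122. Tested were SNHG19, MIR583HG and MIR2117HG, the last with 0 and 40 counts in the wild-type pair and 0 and 21 in the resistant pair. MIR155HG, the host of miR-155 and the 1 member of 23 micropeptide names, had 0, 0, 0 and 17 counts. Both members of 11 pluripotent cell names, LINC00545 and LNCPRESS1, had 0 counts in all libraries. In no list did a gene pass adjustment in edgeR; at an unadjusted p under 0.05 the number was 1, LINC02163, and 0 in the other lists.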

How the data were processed

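RNA of 4 libraries labelled HepG2, 2 wild type and 2 oxaliplatin resistant, was analysed from 1 table of estimated counts per transcript deposited by the authors. The unit was read from the values, whole numbers whose totals differ between libraries. For the aligner, counting tool and annotation, the sources used here give no name; mm9, a mouse build, is listed in the submitters' processing notes, while the identifiers are human. Transcripts were matched by identifier to GENCODE release 29 (GRCh38), which supplied class, position and sequence.

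Counts, as deposited, of all 106179 transcripts entered the edgeR 4.0.16 quasi-likelihood test (R 4.3.3) with TMM scaling, edgeR's filter at a minimum count of 10, no covariates, two-sided p and Benjamini-Hochberg adjustment at 0.05. Fold changes compare mean CPM, and log2 differences come from the fit. The SE was derived from the test, as the absolute log2 difference divided by the square root of its F statistic. The smallest exact permutation p of 2 against 2 is 0.33, so none was run. Alternatives were DESeq2 1.42.0, limma-voom 3.58.1, other scalings, no filter, the replicate number as a block and each library left out. Shared stretches are 31-base words found in a transcript of another gene of the release, read on both strands. Overlaps used bedtools 2.31.1; tables and figures used Python 3.11.15, pandas 2.3.3, NumPy 2.4.6, SciPy 1.17.1 and matplotlib 3.10.9.

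The genes named are, in each direction, up to 12 of smallest p whose groups do not overlap and whose mean count reaches the median of tested genes, the 10 of highest CPM per kilobase, up to 2 per list, and the 4 tested genes of largest count that are at 0 in the other library of their group; others are said to be chosen after their values were seen. The class, lists and rule were chosen with earlier results of these data known. The share of repeat-masked bases was not computed. The sequence and position of 1 transcript are not reported here.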

Additional observations from a re-analysis of the deposited data

How the results depend on the processing

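Under DESeq2, 31 genes passed the threshold where edgeR gave 0, and without each library in turn edgeR gave 0 to 0. At an unadjusted p under 0.05 the count of 60 was 43 to 77 without each library, 21 with the replicate number as a block (12 higher, 9 lower), and 26 of 358 among genes that share no 31-base stretch, an alternative chosen after seeing the data that tests fewer genes. Deviations from the group means in same-numbered libraries had a correlation of 0.0084 over all tested transcripts. This value cannot tell whether same-numbered libraries were prepared together, and the labels state no pairing. The share of counts became 0.639% and 0.625% with Ensembl transcripts as the denominator and 0.517% and 0.517% without the gene of highest count, and ranged from 0.531% to 0.569% in wild type and from 0.559% to 0.559% in resistant cells without each library. Genes discordant within a pair numbered 91 and 89 in wild type and resistant cells at a limit of 50 counts, and 30 and 16 at 200.

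Of 451 alternative values for single genes, 422 kept direction and side of the threshold, 18 passed it under DESeq2 and 11 changed sign. The sign changes were those of AC004704.1 (log2 difference 0.26 with limma-voom, 0.25 with the block, -0.66 to 1.17 without each library), LINC01885 (2.77, 2.54 and -3.44 to 11.85), AC010519.1 (-1.27 to 0.31 without each library) and AL136115.2 (-0.26 to 0.50). The causes were not tested, beyond the libraries left out. Depth limits weak genes: a count of 0 allows up to 3 counts, so levels under 0.0660 to 0.0908 CPM were not detectable, and the 3693 genes at 0 in all libraries could not be compared. Detection at a minimum of 5 or 20 counts kept more genes in resistant than in wild-type cells (820 against 702, and 518 against 433).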
